A study of Homo sapiens with 6 samples.

Results

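The circles described here are exonic circular RNAs whose whole span is a single unspliced block. They were chosen from the deposited annotation table as entries of exon type with a single host gene and a spliced length equal to the full length between the back-splice ends, and no measured level entered the choice. The rule found 410 circles among 9857 listed circular RNAs, which is 4.16% of all listed circles and 4.46% of the 9186 exonic circles with a single host gene. The other 8776 exonic circles of a single host gene have introns removed and are called multi-block circles below. Libraries came from BEAS-2B, an immortalised human bronchial epithelial cell line, kept for 20 weeks either in 2.0 µM cadmium (3 cadmium libraries) or in 0.0 µM cadmium (3 control libraries). Per the labels, total RNA was depleted of ribosomal RNA and digested with RNase R, an exonuclease that degrades linear RNA and spares closed circles, before strand-specific sequencing. The labels do not state whether libraries 1 to 3 of a group are separate cultures. The p-values below therefore cover library-to-library spread only, part or all of which may be technical.

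A circular RNA forms when a splice donor joins an acceptor that lies upstream of it, so that the end of an exon is joined to its own start or to the start of an earlier exon. In the simplest case the donor and the acceptor belong to the same exon and the circle is that exon alone. Circles without free ends resist exonucleases and are long-lived, and long flanking introns with inverted repeats are known to bring the ends together. Circles of this kind include well-known examples such as those of HIPK3, CDYL and PVT1.

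The table gave 133185, 135686 and 160248 back-splice junction reads in the cadmium libraries, against 225769, 137919 and 165352 in the control libraries. Control libraries 1 and 3 stood apart from the other 4 in the share of reads at a circle that cross the junction, as shown in the last comparison. The count table holds no value of 1, so a listed 0 can stand for 0 or 1 read. Some larger circles were nevertheless listed at 0 in a single library where the others implied at least 10 reads, which held for 15 of the 410 circles. The most abundant of them was hsa_circ_0000284 of HIPK3, with 948, 975 and 865 reads in the cadmium libraries, against 1153, 0 and 537 reads in the control libraries. The class shares, the mean level per circle and the unadjusted counts of tested circles are also given without it. None of the 11 bronchial epithelial marker genes, the 3 immune or the 3 endothelial ones hosted a listed circle, so circle reads gave no check of cell type through them. Of 9 fibroblast or mesenchymal markers, ZEB1 and ZEB2 hosted circles, which together had 255 to 356 CPM (junction read counts per 1e+06 of a library) in cadmium libraries and 363 to 417 in control libraries.

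The name single-exon holds for most of these circles but not for all of them. In 317 circles the file lists a single exon that spans the circle from end to end, with lengths of 167 to 1099 bases and a median of 340. Another 84 circles list several exons although their spliced length equals their span, and these run from 444 to 88220 bases with a median of 3848.5. The longest was hsa_circ_0000230 of ZEB1, and 28 of the 84 were longer than 10 kb. Of these 84, 68 matched several exons of a GENCODE transcript and 1 matched a single exon. In these matched circles the GENCODE exons inside the span had a median of 328 bases. The listed length is therefore not known to be the length of the RNA. The remaining 9 circles list an exon that covers part of the span. Set against GENCODE 29 on GRCh38, 290 of the 410 circles (70.7%) had exactly the ends of a single annotated exon, 84 ran over several exons and 36 had other ends. Just outside the rule, 23 multi-block circles coincided with 1 GENCODE exon and 30 listed an exon that spanned the circle.

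The sequences at the back-splice show what such a circle is at the level of RNA. The first set gives the junction of members that the results below turn on, taken from GENCODE 29 transcripts. Each line reads 5′ to 3′ through the back-splice, with the last 15 bases of the exon in lower case and its first 15 bases in capitals.
CDYL hsa_circ_0008285, exon 2, chr6:4891713-4892379, plus strand: ctgttaacgggaaagGTTGAAAGGATTGTT
HIPK3 hsa_circ_0000284, exon 2, chr11:33286413-33287511, plus strand: atctcggtactacagGTATGGCCTCACAAG
LRP6 hsa_circ_0000378, exon 2, chr12:12244262-12244655, minus strand: agatccttcaagtggCGGCCCCTTTGTTGC
GTF3C2 novel_circ_0024095, exon 2, chr2:27350314-27350632, minus strand: agaattgctgattcgAGACAAAGTCTTGCT
GFOD2 novel_circ_0010635, exon 2, chr16:67685457-67685802, minus strand: ccgtgaaggctctagGAGCCATGTCTGACC
RPN1 hsa_circ_0067230, exon 3, chr3:128637799-128638105, minus strand: cctgcctatagtcagTGGGAGATTCTTCAC
In the HIPK3 line the capitals begin with the start codon ATG preceded by GT, and 1097 of the exon's 1099 bases are coding. The second set gives 3 whole circles, all of coding sequence, with the first and last 15 bases in capitals. They are the shortest of the 410 (DLG1), the most abundant of the 4 circles with reads in all 3 cadmium and no control libraries (CRIM1), and the circle with the second-smallest p-value (SIPA1L3).
DLG1 hsa_circ_0068708, exon 4, chr3:197282679-197282845, minus strand: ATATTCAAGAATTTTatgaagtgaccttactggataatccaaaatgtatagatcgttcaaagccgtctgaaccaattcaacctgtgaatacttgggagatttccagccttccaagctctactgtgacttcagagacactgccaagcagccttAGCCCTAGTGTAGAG
CRIM1 hsa_circ_0002017, exon 2, chr2:36396614-36396787, plus strand: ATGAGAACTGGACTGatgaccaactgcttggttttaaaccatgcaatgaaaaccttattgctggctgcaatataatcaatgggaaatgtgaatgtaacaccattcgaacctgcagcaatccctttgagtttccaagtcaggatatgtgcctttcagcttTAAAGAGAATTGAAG
SIPA1L3 novel_circ_0015213, exon 10, chr19:38130498-38130772, plus strand: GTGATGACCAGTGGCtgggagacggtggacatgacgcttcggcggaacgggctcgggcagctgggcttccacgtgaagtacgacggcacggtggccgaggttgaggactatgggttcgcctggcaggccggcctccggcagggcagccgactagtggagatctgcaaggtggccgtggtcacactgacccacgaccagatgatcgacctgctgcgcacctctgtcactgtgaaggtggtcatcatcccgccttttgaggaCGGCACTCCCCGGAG
Over the 290 circles of exactly 1 annotated exon, the last base was G in 254 (87.6%) and the last pair of bases AG in 190 (65.5%), the exon side of a splice donor. The intron side of the splice sites was not analysed here. To see whether the ends could also come from another gene, the first and last 30 bases of each exon were searched in all GENCODE transcripts of other genes on both strands. Neither end was found in another gene for 276 of the 290 circles, and both ends were found elsewhere for 3. Among the 14 with an end elsewhere was hsa_circ_0044177 of PLEKHM1, whose first 30 bases are also in the pseudogene PLEKHM1P1. The circles of the paralogs TYW1 and TYW1B likewise had their first 30 bases in the other paralog. The last 30 bases of these circles were not found in another gene, so by this search only their first ends were ambiguous.

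The circularised exons were long exons near the start of their transcripts. Their median length was 336.5 bases, against a median internal exon of 145.75 bases in the same transcripts. The circle was made of the longest internal exon of its transcript in 185 of 290 cases (63.8%), where counting each internal exon alike would give 17.8%, and 17 of these transcripts have only 1 internal exon. Lengths under 200 bases were found in 1.03% of the circles and in 0.864% of multi-block circles, so very short circles were rare in both kinds. FAT1, an atypical cadherin of very large size, gave the longest exon, the 3283-base exon 2 of hsa_circ_0001461. HIPK3 followed with 1099 bases.

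Exon 2 made up 140 of the 290 circles (48.3%, exact binomial 95% interval 42.4 to 54.2%). Counting each internal exon of a transcript alike would give 17.8%, as for the longest exon above. Pooled over all internal exons of these transcripts, where transcripts with many exons weigh most, exon 2 is 7.51%. Among multi-block circles 28.1% began at exon 2. The start codon lay inside 89 of 283 circles from coding transcripts (31.4%, interval 26.1 to 37.2%), compared with 13.0% of multi-block circles. All bases were coding in 66.1% of the single-exon circles and in 84.6% of the multi-block circles. The exon length was a multiple of 3 in 33.8% of circles, against 39.1% of all internal exons of the same transcripts. Circles of a gene share their transcript, so these shares are descriptions and were not tested.

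**Figure D1:**
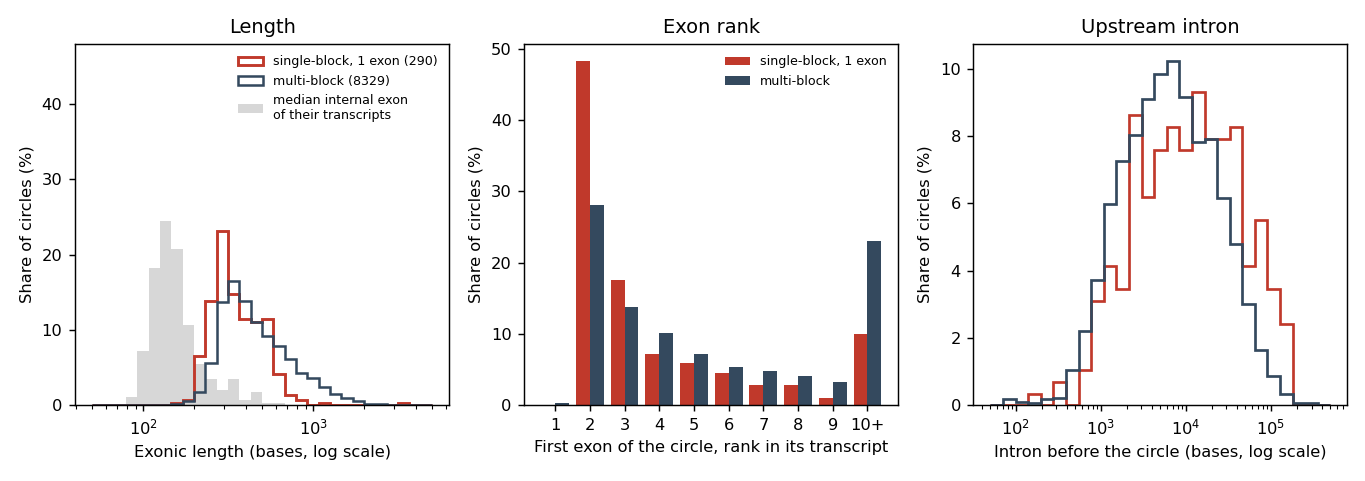
Exonic length, rank of the first exon and length of the intron before the circle, for the 290 single-block circles that are exactly 1 GENCODE exon (red) and 8329 multi-block circles (blue), as shares of circles in percent. The grey histogram is the median internal exon of the 290 transcripts. The red length histogram lies right of the grey one, and the exon 2 bar reaches 48.3% for single-block and 28.1% for multi-block circles.

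Introns on both sides were long. The intron before the circle had a median of 11209 bases and the intron after it a median of 10455, against 6368 and 5736 bases for multi-block circles. The transcripts themselves differed less, with a median intron of 3013.5 bases for single-block and 2494 bases for multi-block circles. The downstream intron was the longest of its transcript for 26.6% of single-block and 12.2% of multi-block circles. In CDYL, which encodes a chromodomain corepressor, exon 2 sits between introns of 114905 and 43135 bases. In HIPK3, which encodes a homeodomain-interacting protein kinase, the flanking introns have 28523 and 40998 bases. GC content was higher in the single-exon circles, with a median of 49.2%, against 44.3% in multi-block circles.

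Single-block circles came from 371 host genes, of which 341 had 1 such circle, 25 had 2 and 5 had from 3 to 5. KANSL1, a subunit of a histone acetyltransferase complex, had 5, PPP2R3B and ZEB1 had 4 each, and ERC1 and FAM208B had 3 each. All 5 of KANSL1 and all 4 of ZEB1 belonged to the group with several listed exons and shared ends with other circles of the gene. Over all 410, the acceptor was used by another listed circle in 27.8% and the donor in 23.9%, and neither was shared in 54.9%. Protein-coding genes hosted 390 of the circles and lincRNA genes 11. For 128 circles no other circle of the host was listed. Among the 282 with other circles of the same host, the single-block circle held more than 50% of the host's junction reads in 84 and under 5% in 31.

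The abundance was concentrated in few circles, and the 10 most abundant held 33.5 to 35.3% of single-block junction reads in cadmium libraries and 32.4 to 34.7% in control libraries. Levels below are CPM of junction reads, with library sizes scaled with edgeR's trimmed mean of M-values (TMM). The largest was hsa_circ_0008285 of CDYL, with 5051, 5236 and 3701 CPM in cadmium libraries, against 6421, 5710 and 5505 in control libraries. Every cadmium library was below every control library. Its log2 fold change was -0.34 with a standard error of 0.14, and edgeR's adjusted p was 0.534, so the difference did not pass.

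The HIPK3 circle had 7011, 7061 and 5519 CPM in cadmium libraries, against 5184, 0 and 3231 in control libraries. Cadmium libraries were the higher ones here, and control library 2 alone was at 0. Junction reads made up 95.3 to 97.2% of all reads at this circle in cadmium libraries and 97.3 to 98.0% in the control libraries 1 and 3. Its log2 fold change of 1.21 had a standard error of 1.45 and an adjusted p of 0.872 in edgeR. A second HIPK3 circle, hsa_circ_0002127, whose span of 540 bases starts at the same base as exon 2, had 12, 6 and 8 reads in cadmium libraries and 0, 6 and 0 in control libraries. Non-junction reads at this second circle numbered 968, 1005 and 798 in cadmium libraries and 972 in control library 2. Control libraries 1 and 3 have no such value. The reason for the listed 0 of hsa_circ_0000284 in control library 2 was not tested.

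PVT1, a long non-coding RNA gene next to MYC, gave hsa_circ_0001821 from its exon 2 of 410 bases. It had 2189, 2252 and 4747 CPM in cadmium libraries, against 1911, 2119 and 2611 in control libraries. Cadmium library 3 alone lay above the control range, and the direction turned without it (log2 fold change 0.47 with all libraries, adjusted p 0.740 in edgeR, and -0.01 without cadmium library 3). FBXW7, the substrate receptor of a ubiquitin ligase, gave hsa_circ_0001451, which belongs to the group with several listed exons. It had 2560 ± 551 CPM in cadmium libraries and 2561 ± 158 in control libraries (SD, n = 3 each). These means were nearly equal and the libraries overlapped. FAT1 was the least steady of the abundant circles, with 1827, 0 and 1519 CPM in cadmium libraries and 782, 2822 and 379 in control libraries.

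The remaining abundant circles differed little between the groups. ZRANB1, a deubiquitinase gene, gave 1970 ± 118 CPM in cadmium libraries and 1773 ± 237 in control libraries. PCMTD1, a methyltransferase-like gene, gave 1354 ± 140 with cadmium, against 1220 ± 17.5 in controls. LRP6, a Wnt co-receptor gene, gave 1284 ± 359 with cadmium, against 1096 ± 118 in controls. CRKL, which encodes a signalling adaptor, gave 1046 ± 3.67 with cadmium, against 943 ± 69.0 in controls, and its libraries did not overlap. DYRK1A is a protein kinase gene whose circle belongs to the group with several listed exons. It gave 878 ± 31.9 with cadmium, against 939 ± 36.8 in controls (SD, n = 3 in each group for all 5 genes). None passed the edgeR test, with adjusted p-values from 0.789 to 0.901.

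**Figure D2:**
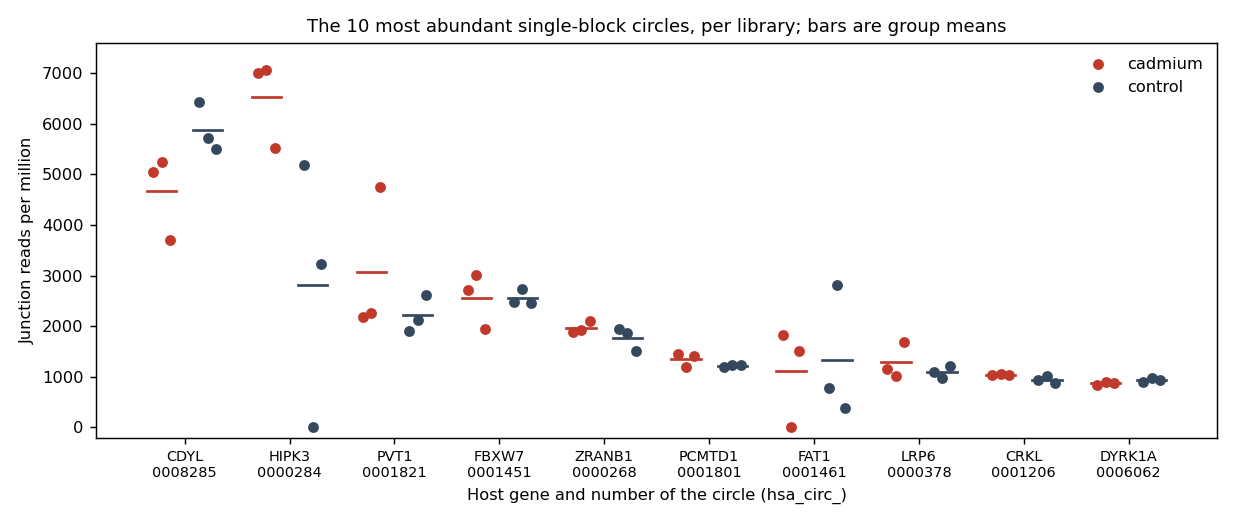
CPM (junction read counts per 1e+06) of the 10 most abundant single-block circles in each cadmium library (red, left of each pair) and control library (blue, right), with bars at the group means. The CDYL points with cadmium lie below the control points, and 1 HIPK3 control library and 1 FAT1 cadmium library lie at 0.

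As a class, single-block circles took a larger share of junction reads in cadmium libraries. The share was 7.27, 7.18 and 7.30% in cadmium libraries, against 6.56, 6.17 and 6.36% in control libraries. In bulk RNA a change in RNA per cell and a change in the number of cells that carry it cannot be told apart. The groups did not overlap, and the means were 7.25 ± 0.0633% with cadmium, against 6.36 ± 0.199% in controls (SD, n = 3 each), a difference of 0.884 percentage points. The two-sided exact permutation test over libraries gave p = 0.1, which is the smallest value that 3 libraries against 3 allow, so the design cannot reach 0.05. Without the HIPK3 circle the shares were 6.61, 6.50 and 6.79% in cadmium libraries, against 6.09, 6.17 and 6.05% in control libraries. The groups still did not overlap and the difference was 0.532 points (exact permutation p = 0.1). Without the 10 most abundant circles it was 0.526 points, and with control libraries 1 and 3 left out together it was 0.467 points without the HIPK3 circle.

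Most of the difference in share lay in the circles with a single listed exon spanning them. These 317 took 5.96 ± 0.0829% of junction reads in cadmium libraries and 5.09 ± 0.303% in control libraries (SD, n = 3 each). The exact permutation test gave p = 0.1, and the means were 5.34% and 4.83% without the HIPK3 circle. The 84 circles with several listed exons took 1.12 ± 0.0658% with cadmium, against 1.09 ± 0.0124% in controls (exact permutation p = 0.5). Multi-block circles of the same length range, 245.6 to 557 bases, took 65.5 ± 1.65% with cadmium, against 65.4 ± 2.13% in controls (exact permutation p = 1). Multi-block circles of 2 GENCODE exons, which are nearest in make-up, took 27.2 ± 0.557% with cadmium, against 25.7 ± 1.14% in controls, a difference of 1.44 points with overlapping libraries (exact permutation p = 0.2). All multi-block circles together took 87.4 ± 0.291% with cadmium, against 88.2 ± 0.190% in controls (exact permutation p = 0.1).

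The share was also compared within terciles of GC content. Here the whole is the junction reads of exonic circles of a single host gene in that tercile that matched a GENCODE transcript. In the lowest tercile of GC content, below 45.5%, single-block circles without the HIPK3 circle took 4.49% of junction reads with cadmium, against 3.95% in controls (exact permutation p = 0.1). In the middle tercile they took 7.78% with cadmium, against 7.15% in controls (exact permutation p = 0.2). In the highest tercile, above 53.9%, the direction turned, with 13.6% in cadmium and 14.7% in control libraries (exact permutation p = 0.3), and without the 10 most abundant circles it was 10.4% with cadmium, against 10.3% in controls (exact permutation p = 0.9). Without those 10 circles the differences were 0.452, 0.362 and 0.0742 points from the lowest to the highest tercile. The part of GC content in the difference was not tested.

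The host gene comparison sets both kinds of circle against each other within the same genes. In the 233 host genes that list both kinds, single-block circles held 32.1, 32.5 and 34.5% of junction reads in cadmium libraries, against 30.7, 27.2 and 30.4% in control libraries. The groups did not overlap, with means of 33.0 ± 1.30% with cadmium, against 29.4 ± 1.95% in controls (SD, n = 3 each), a difference of 3.63 points (exact permutation p = 0.1). Without the HIPK3 circle the difference was 1.86 points and the groups overlapped (exact permutation p = 0.2).

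The number of circles seen went the other way. Of the 410 circles, 92.2, 91.2 and 91.7% were above 0 in cadmium libraries, against 94.9, 91.0 and 93.7% in control libraries. These shares are not scaled for sequencing depth, and control library 1, the deepest with 225769 junction reads, had the highest share. The groups overlapped (difference -1.46 points, exact permutation p = 0.4), and 277 circles were above 0 in all 6 libraries.

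**Figure D3:**
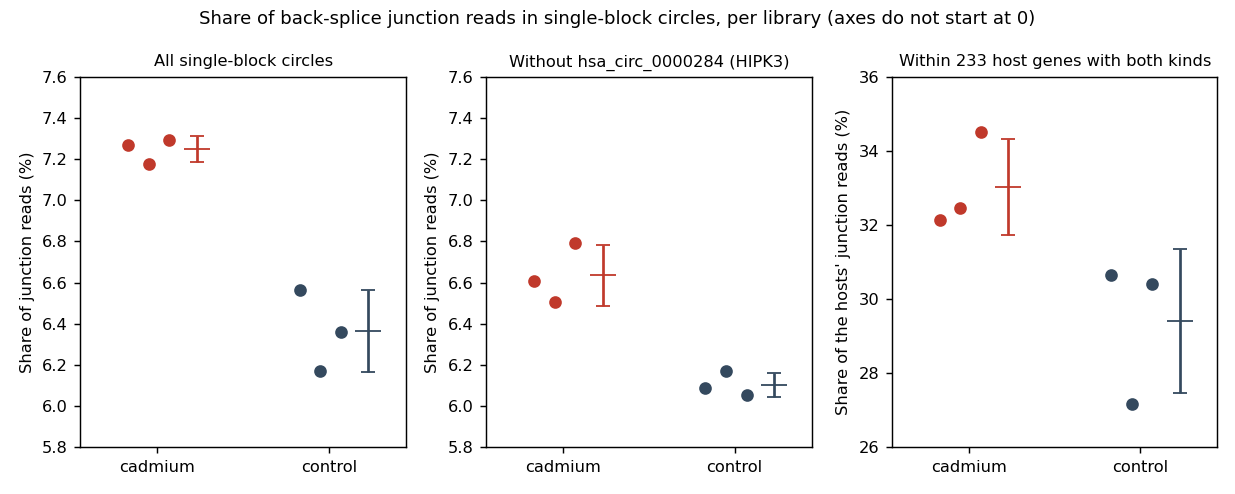
Share of junction reads in single-block circles in percent, per library, for all 410 circles, without the HIPK3 circle, and within 233 host genes that list both kinds (HIPK3 circle included). Points are libraries, horizontal marks with bars are means ± SD of 3 libraries, cadmium left and control right, and the axes do not start at 0. Cadmium points lie above the control points in all 3 panels.

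Circle by circle, 309 of the 410 had enough reads for edgeR's quasi-likelihood test, and none passed an adjusted p of 0.05 (over all 6182 circles tested, 0% were called higher and 0.0809% lower with cadmium). DESeq2 and limma also called none. At an unadjusted p under 0.05, 33 single-block circles were higher with cadmium, which is 10.7% of those tested against 4.32% of all circles. On the other side 8 were lower, which is 2.59% against 3.88% of all circles. Libraries of the groups did not overlap for 39 circles with cadmium higher (12.6%, against 7.52% of all circles) and for 13 with cadmium lower (4.21%, against 7.78%). The median log2 fold change was 0.15 over the single-block circles and 0.01 over all circles, with 196 above 0 and 113 below. With the HIPK3 circle left out, 30 were higher and 8 lower at the unadjusted p, against 3.93% and 4.30% of all circles, and the median was 0.13. In simulated counts the test called 13.5% of 89 circles changed 2-fold and 79% of 81 changed 4-fold, among circles that passed the read filter. The simulated counts held no irregular zeros of the kind seen for HIPK3, so these rates may not hold for the real circles.

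The same lean appeared in each tercile of GC content. Median log2 fold changes of single-exon circles were 0.23, 0.08 and 0.26 from the lowest to the highest tercile, against -0.04, 0.00 and 0.19 for multi-block circles. In the highest tercile both kinds were therefore shifted upward. Of the 33 higher circles 8 had no circBase number and were listed by the authors as new, as were 1 of the 8 lower ones and 78 of all 410 circles.

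The circle nearest to a call was novel_circ_0024095 of GTF3C2, a subunit of the TFIIIC factor of RNA polymerase III. Its exon of 319 bases is exon 2 of a transcript with 3 exons and holds no coding base of it. It had 63, 98 and 110 reads in cadmium libraries, against 57, 46 and 43 in control libraries, or 466, 710 and 702 CPM with cadmium, against 256, 334 and 259 in controls. Every cadmium library was above every control library. Its log2 fold change was 1.16 with a standard error of 0.22, and edgeR's adjusted p was 0.104. It passed with a minimum count of 10 (adjusted p 0.0454 in edgeR) and with circles of an implied 0 left out of the table (0.0400), and did not pass otherwise. In the authors' deposited table its log2 fold change was 1.03 and its adjusted p 0.0603.

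Further circles with higher values under cadmium were rarer. SIPA1L3, a gene of the Rap GTPase-activating family, gave novel_circ_0015213 with 7, 15 and 17 reads in cadmium libraries, against 5, 3 and 3 in control libraries (log2 fold change 2.07 ± 0.50 standard error, edgeR adjusted p 0.348). PUS7, a pseudouridine synthase gene, gave novel_circ_0034496 with 10, 6 and 12 reads with cadmium, against 2, 0 and 0 in controls (edgeR adjusted p 0.362). GFOD2, a gene of an oxidoreductase-domain protein, gave novel_circ_0010635 with 22, 18 and 31 reads with cadmium, against 19, 11 and 10 in controls (log2 fold change 1.11 ± 0.33, edgeR adjusted p 0.421). ZC3H18, a zinc finger gene of nuclear RNA decay, gave novel_circ_0011018 with 9, 17 and 32 reads with cadmium, against 11, 4 and 0 in controls (edgeR adjusted p 0.421). For all 4 the groups did not overlap once scaled to library size.

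CRIM1, which encodes a transmembrane protein that binds bone morphogenetic proteins, listed a pair of such circles. The exon 2 circle hsa_circ_0002017 of 174 bases had 7, 6 and 10 reads in cadmium libraries and 0 in all 3 control libraries. If each listed 0 stands for at most 1 read, a floor of 3 reads over the control group gives a 9.45-fold higher level with cadmium. This value leaves out counting error, and other circles had listed zeros where at least 10 reads were implied. The adjusted p in edgeR was 0.378. The exon 2 circle held 0.511% of the junction reads of CRIM1, which lists 18 circles. The other one, hsa_circ_0005507, ends at the same base and lists several exons over a longer span, and it had 17, 20 and 26 reads with cadmium, against 42, 23 and 37 in controls. Here the cadmium libraries were lower once scaled (146 ± 20.1 CPM with cadmium, against 193 ± 28.1 in controls, SD, n = 3 each, edgeR adjusted p 0.725).

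On the lower side, RPN1, a subunit of the oligosaccharyltransferase, gave hsa_circ_0067230 with 5, 4 and 3 reads in cadmium libraries, against 19, 15 and 9 in control libraries (log2 fold change -1.53 ± 0.49, edgeR adjusted p 0.436). MGME1, a mitochondrial exonuclease gene, gave novel_circ_0019797 with 6, 8 and 14 reads with cadmium, against 25, 23 and 20 in controls. TENM3, a teneurin gene, gave hsa_circ_0002840 with 2, 7 and 8 reads with cadmium, against 13, 22 and 17 in controls. The adjusted p in edgeR was 0.475 for both. PLCE1, a phospholipase C gene, gave hsa_circ_0019225 with 10, 0 and 9 reads with cadmium, against 27, 16 and 20 in controls. FARS2, the mitochondrial phenylalanyl-tRNA synthetase gene, gave hsa_circ_0002958 with 18, 12 and 15 reads with cadmium, against 45, 24 and 23 in controls. In each of these 5 the groups did not overlap after scaling.

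**Figure D4:**
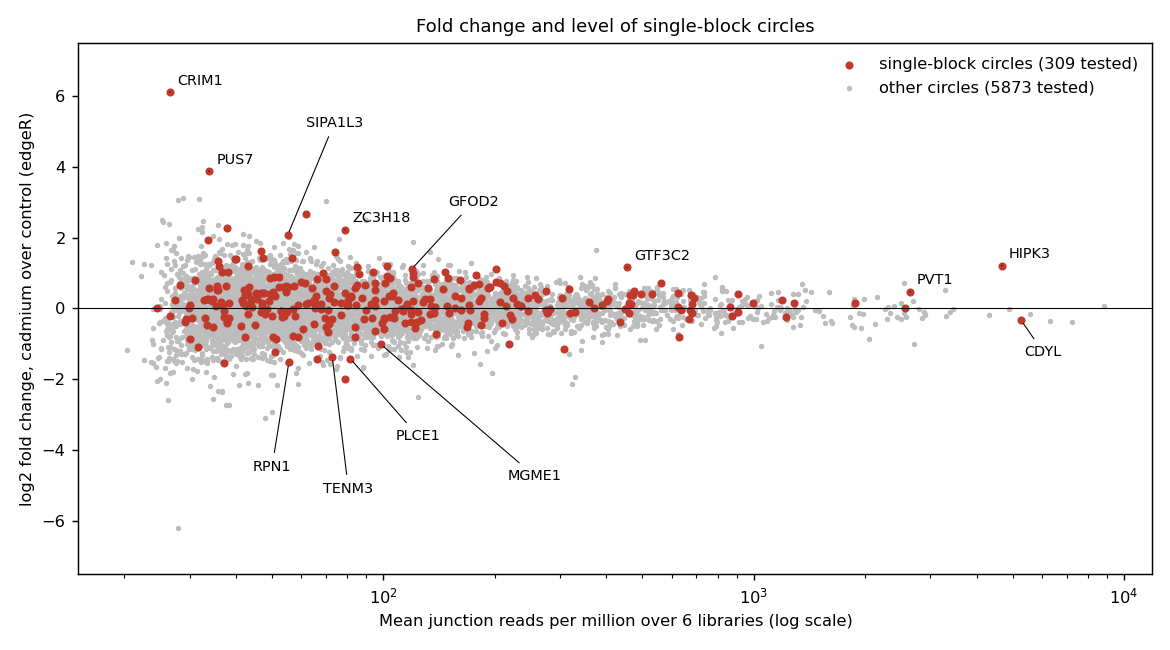
Log2 fold change of cadmium over control by edgeR against the mean CPM over 6 libraries (log axis), for 309 single-block circles (red) and the other circles tested (grey), with circles described in the text labelled by host gene. None of the red points passed the adjusted p, 196 lie above 0 and 113 below, and the value of the CRIM1 point depends on how its 0 reads in control libraries are handled.

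Members of gene lists were few, and none of them rose or fell in the test. Metal handling and oxidative stress, the list closest to the treatment, had only KEAP1 and BACH1 as hosts. KEAP1, the adaptor that delivers the oxidative-stress factor NRF2 to a ubiquitin ligase, gave hsa_circ_0006149 with 0, 0 and 16 reads in cadmium libraries, against 22, 12 and 18 in control libraries. Cadmium library 3 alone was within the control range, and edgeR's adjusted p was 0.727 with all libraries and 0.0160 without that library. BACH1, a repressor that acts on the same antioxidant elements, gave hsa_circ_0001180 with 15, 12 and 14 reads with cadmium, against 11, 13 and 21 in controls.

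Protein kinase genes hosted 9 circles, of which 8 were tested, with 6 above and 2 below 0. LATS2, a Hippo pathway kinase, gave hsa_circ_0029693 at 173 ± 26.7 CPM with cadmium, against 100 ± 34.0 in controls (SD, n = 3 each, edgeR adjusted p 0.510). FGFR1, a fibroblast growth factor receptor, gave hsa_circ_0008016 with 14, 7 and 7 reads with cadmium, against 7, 5 and 10 in controls. Chromatin genes hosted 11 tested circles, with 5 above and 6 below 0. BAZ1A, a subunit of chromatin remodellers, gave 232 ± 31.6 CPM with cadmium, against 155 ± 28.7 in controls, without overlap (edgeR adjusted p 0.560), and HDAC9, a histone deacetylase, gave 66.6 ± 19.9 with cadmium, against 34.7 ± 8.91 in controls.

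RNA-binding and helicase genes had 6 tested circles, with 3 on each side of 0. DDX21, a nucleolar RNA helicase, gave 553 ± 103 CPM with cadmium, against 398 ± 81.7 in controls. SRSF4, a splicing factor, gave 311, 514 and 306 with cadmium, against 292, 276 and 199 in controls. IGF2BP2, a messenger RNA-binding protein, gave 185, 196 and 204 with cadmium, against 198, 138 and 168 in controls, and overlapped. In the list of ubiquitin ligase and deubiquitinase genes, 3 circles were tested (FBXW7, MYCBP2 and HECTD4). All had values below 0, at -0.001, -0.34 and -0.25 on the log2 scale. The list is not complete, as the circle of ZRANB1, a deubiquitinase gene outside it, was above 0 at 0.15. The circles of FBXW7 and MYCBP2 list several exons. Among 7 circles of adhesion and epithelial-mesenchymal genes, 3 were above and 4 below 0, and hsa_circ_0000230 of ZEB1, a repressor of epithelial genes, had 2, 5 and 9 reads with cadmium, against 20, 6 and 11 in controls. Zinc finger genes had 5 tested circles with 4 above 0, led by ZNF398 at 257 ± 109 CPM with cadmium, against 157 ± 41.2 in controls. The cell cycle and repair list had a single circle, that of the centromere gene CENPI, with 6, 5 and 15 reads with cadmium, against 8, 2 and 2 in controls. Well-studied circRNA hosts had 11 tested circles, with 8 above and 3 below 0, and those of NFIX and CSNK1G3 overlapped between the groups.

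Circles listed at 0 in some libraries depended most on which libraries were used. TBC1D14 gave hsa_circ_0001394 with 0, 0 and 14 reads in cadmium libraries, against 30, 17 and 21 in control libraries, and its edgeR adjusted p was 0.566, or 0.00731 without cadmium library 3. FOXN2 gave hsa_circ_0001002 with 13, 15 and 17 reads with cadmium, against 0, 8 and 0 in controls, and its edgeR adjusted p was 0.436, or 0.0112 without control library 2. The HIPK3 circle passed (adjusted p 8.96e-06 in edgeR) only with control libraries 1 and 3 left out, which left control library 2, at 0, as the only control, assumed to vary like the cadmium libraries. Of the 410 circles, 4 were at 0 in all control libraries and 6 at 0 in all cadmium libraries, and apart from CRIM1 none of these had more than 17 reads.

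A circle with a single block was on average more abundant than a multi-block circle. The mean over listed circles, in CPM of the library total without TMM, was 177, 175 and 178 for single-block circles in cadmium libraries and 160, 150 and 155 in control libraries. Multi-block circles had 99.7, 99.9 and 99.2 in cadmium libraries and 100, 101 and 100 in control libraries. The ratio was above 1 in all 6 libraries, with a mean log2 ratio of 0.73 (two-sided exact sign-flip permutation test over 6 libraries, p = 0.03125, the smallest possible). Without the HIPK3 circle the mean log2 ratio was 0.63 (the same p). All libraries measure the same circles, so these p-values do not cover the spread between circles. Medians over circles gave a log2 ratio of 0.51. Within the 290 single-exon circles, exons of 400 bases or longer had a median of 101 CPM, against 46.9 for shorter ones, and exon 2 circles had 79.7, against 50.9 for other exons.

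Single-block circles also had more of their reads on the junction. The junction ratio given here counts each junction read 2 times and divides by that count plus the non-junction reads. It is therefore larger than the plain share of reads given for the HIPK3 circle above. Reads were summed over the 277 single-block and 5425 multi-block circles with junction and non-junction reads in every library. The ratio was 41.7, 40.2 and 38.1% for single-block circles in cadmium libraries and 60.7, 37.2 and 64.3% in control libraries. For multi-block circles the values were 28.7, 30.6 and 29.2% in cadmium libraries and 44.8, 28.2 and 47.5% in control libraries. Single-block circles were higher in all 6 libraries, by 12.2 points on average (two-sided exact sign-flip permutation test, p = 0.03125). Here too the p-value does not cover the spread between circles. With circles of at least 30 reads the difference was 4.57 points, and for circles with a spanning listed exon it was 21.2 points. Between the groups the single-block ratio overlapped (40.0 ± 1.76% with cadmium, against 54.1 ± 14.7% in controls, SD over 3 libraries each; exact permutation p = 0.4). Control library 2, at 37.2%, lay just below the cadmium libraries, and control libraries 1 and 3 lay above them. The share of junction reads without these 2 libraries, above, rests on control library 2 as the only control. Their part in the difference in share was not tested.

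**Figure D5:**
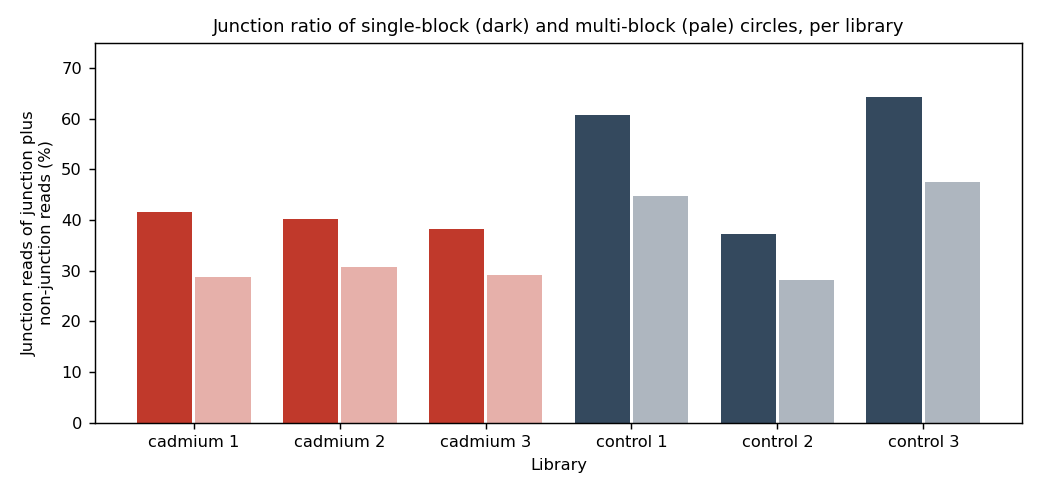
Junction ratio in percent, with junction reads weighted against non-junction reads as defined in the text. Reads were summed over 277 single-block (dark bars) and 5425 multi-block circles (pale bars), in the 3 cadmium libraries (red, left) and the 3 control libraries (blue, right). The dark bar is the taller of each pair, and control libraries 1 and 3 lie at 60.7 and 64.3% for single-block circles.

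In the authors' deposited table of cadmium against control, 26 of the 410 circles (6.34%) were marked as changed, 19 higher and 7 lower, compared with 506 of all 9857 circles (5.13%), 235 higher and 271 lower. The mark coincided with an unadjusted p under 0.05 in every row, and no single-block circle had an adjusted p under 0.05 there.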

How the data were processed

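Circular RNAs were measured in 3 cadmium and 3 control libraries of BEAS-2B cells. The authors deposited whole-number counts of back-splice junction reads per circle and library, per the file headers, and TPM values that are each library's counts scaled to 1e+06 with no length term. The authors' comparison table gives normalised mean reads of each group (a signal whose scaling is not stated), a log2 fold change and p-values, per the file headers. Lengths, positions and non-junction reads come from the authors' annotation table, per the file headers. The submitters' processing notes name Bowtie2 2.2.8, Bowtie, DESeq 1.10.1 and hg19, while the positions in the files follow GRCh38 exon ends. No source used here names the tool that called the circles.

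The 2 tables were joined by circle identifier. The host gene field ends with a semicolon, which was trimmed before the rule on a single host was applied, and hsa_circ_0006988, entered in 2 rows with the same values, was counted as 1. Counts were tested with edgeR 4.0.16 (R 4.3.3, TMM factors, filterByExpr with a minimum count of 5 and a total of 15, robust quasi-likelihood, Benjamini-Hochberg over 6182 circles). Alternatives used DESeq2 1.42.0 and limma 3.58.1 on log2(TPM + 1). Shares were compared by exact permutation over libraries. A standard error is printed after ± for fold changes and an SD for levels. Exons, introns and sequences come from GENCODE 29 on GRCh38. On simulated counts (5525 circles tested), edgeR called 1 of 5355 unchanged circles. Intervals cover counting error only. No pair of libraries within a group agreed within sampling noise, as the chi-square statistic over its degrees of freedom was 1.59 to 2.49.

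The members, gene lists and tests were chosen with earlier results of these data known. Circles named are the 10 most abundant, the 6 on either side with the smallest p, hosts of well-studied circles, up to 3 per gene list, and the longest and shortest. TBC1D14, FOXN2, PLEKHM1, TYW1, TYW1B, hsa_circ_0002127 of HIPK3 and hsa_circ_0005507 of CRIM1 were named after their values were seen.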

Additional observations from a re-analysis of the deposited data

How the results depend on the processing

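The larger share of junction reads with cadmium kept its direction under all settings tried except within the highest tercile of GC content, where the difference was -1.11 points both with and without the HIPK3 circle, which is not in that tercile; leaving out single libraries gave 0.786 to 0.984 points, or 0.453 to 0.597 points without the HIPK3 circle. With the replicate number as a block, the exact sign-flip test gave p = 0.25 for both shares (0.884 and 0.532 points), the smallest value that 3 pairs allow, while edgeR called 0 circles by adjusted p, and 35 were higher and 8 lower by unadjusted p. Same-numbered libraries of the groups did not deviate together (correlations of 0.0002, 0.02 and 0.05), so the numbers were not taken as pairs. The difference in the share of circles detected turned to 0.732 points with control replicates 1 and 3 left out together. The median listed length was 336.5 bases for circles of 1 annotated exon, against 402 for all. Without single libraries, the log2 ratio of levels between the kinds stayed at 0.704 to 0.757 and the junction ratio difference at 11.3 to 12.8 points, with a smallest possible p of 0.0625. For the test of single circles, DESeq2 gave 13 higher and 4 lower by unadjusted p (1.68 and 1.71% of all circles), a minimum count of 10 gave 23 and 4 (5.16 and 5.61%), and no filter gave 38 and 16 (4.49 and 5.8%). Adjusted calls were 1 rise with a minimum count of 10 and 1 without circles with an implied 0 (both GTF3C2), and 1 with control replicates 1 and 3 left out (HIPK3). Leaving out single libraries gave 0 to 1 rise and 0 to 2 falls (FOXN2, KEAP1 and TBC1D14), with 20 to 33 higher and 3 to 11 lower at the unadjusted p, against 3.09 to 4.21% and 2.66 to 4.86% of all circles.

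Directions of some circles that did not pass also turned. On the log2 scale, FBXW7 was 0.013 with library totals alone and ZEB1 hsa_circ_0003793 was 0.55 with control replicates 1 and 3 left out. Leaving out single libraries gave -0.013 to 0.63 for PVT1 hsa_circ_0001821, -0.0067 to 0.52 for PVT1 hsa_circ_0008849, -0.16 to 0.15 for FBXW7, -0.82 to 0.89 for FAT1, -0.042 to 0.35 for LRP6, -0.14 to 0.84 for ZNF148, -0.083 to 0.61 for NFIX, -0.22 to 0.45 for BACH1 and -0.33 to 0.87 for DLG1. The cause of these turns was not tested. Settings on implied zeros, control replicates 1 and 3, spanning exons, detection in all libraries, the 10 most abundant circles and GC content were chosen after seeing the data. Of the results that compare the groups or the kinds of circle, 142 values under alternatives kept their direction and their side of the threshold, 12 no longer passed it, 13 moved and 3 turned. For single circles 701 kept both, 15 turned and 4 newly passed.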

Other observations

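Circles from long non-coding genes other than PVT1 had few reads. MIR29B2CHG, the host of microRNA genes, gave hsa_circ_0006827 with 40, 25 and 51 reads in cadmium libraries, against 64, 39 and 49 in control libraries. MUC20-OT1 gave hsa_circ_0008444 with 19, 21 and 22 reads in cadmium libraries, against 23, 12 and 15 in control libraries, and its groups did not overlap after scaling (log2 fold change 0.61 ± 0.30 standard error, edgeR adjusted p 0.632). NEAT1, the RNA of paraspeckles, and MALAT1, the RNA of nuclear speckles, each listed a pair of single-block circles. The larger NEAT1 one, hsa_circ_0006417, had 9, 12 and 27 reads in cadmium libraries, against 28, 11 and 12 in control libraries, and neither of its ends lay on a GENCODE exon bound. The larger MALAT1 one, hsa_circ_0004287, had 4, 6 and 12 reads in cadmium libraries, against 17, 6 and 9 in control libraries. These circles all list several exons and were chosen after their values were seen.

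By chromosome, the single-block share of listed circles was highest on chromosome 16, with 25 of 323 circles (7.74%), and on X, with 15 of 194 (7.73%).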
